A study of Macaca mulatta with 6 samples.

Results

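The cytosolic ribosomal protein genes, which encode the protein parts of the small (40S) and large (60S) ribosomal subunits, were followed across 6 single blood colonies of the rhesus macaque. A row of the count table was taken as a member when its gene symbol was RPL or RPS followed by a number and its usual suffix, or was RPLP0 to RPLP2 or RPSA, and the row with the highest total was used for each symbol. This gave 70 members of 32386 rows, 30 of the small subunit and 40 of the large. Of these, 66 passed the filter on low counts and were tested, 28 of the small and 38 of the large subunit. The rule itself names symbols and totals, not measured differences, but the set was chosen with earlier results of these data known. RPL10, RPL3L and RPS27 had 0 counts in all 6 libraries. The row under the symbol RPS2 had 10 counts in all, while a row that carries no symbol but is described as RPS2 in the authors' deposited table had 46605.

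The colonies came from a macaque model of clonal hematopoiesis, in which blood cells descend in excess from a few mutated stem cells. CD34+ cells mobilized into the blood were edited with CRISPR/Cas9 and given back to the same animal, and marrow CD34+ stem and progenitor cells were taken 15 months later. They were grown for 14 days in semi-solid MethoCult H4435 medium, after which individual granulocyte-macrophage colonies (CFU-GM, colonies grown from 1 progenitor) were picked, divided for RNA and DNA and genotyped. The 3 WT libraries come from colonies labelled TET2 wild type and the 3 UA libraries from colonies labelled TET2 uniallelic, that is, with a predicted loss-of-function change on 1 allele of this DNA demethylase gene. Both groups share the editing treatment, the transplant, the time and the medium. The labels give neither the number of animals nor which change each UA colony carries, and nothing says that the colonies are separate animals, so p-values measure the spread between these libraries only.

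A ribosome joins one molecule each of the ribosomal RNAs to a set of proteins that is nearly the same in every cell. The mRNAs of these proteins begin with a run of pyrimidines, the 5' TOP motif, through which nutrient and growth signals set their translation together. Blood formation is sensitive to their dose: loss of 1 allele of several of them causes Diamond-Blackfan anaemia, and RPS14 lies in the region lost in the 5q- syndrome.

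Counts per library ranged from 6334264 to 25485143, with the deepest library WT 1 and the shallowest UA 3. Levels are given as CPM, the counts of a gene scaled to a common library total, after correction by TMM factors, which were 0.86 in WT 1 and between 0.99 and 1.07 in the other 5 libraries. A count of 0 allowed a level of up to 0.137 CPM in WT 1 and 0.443 CPM in UA 3, counting error only. TET2 itself was at 79.3, 92.8 and 109 CPM in the WT libraries and at 238, 225 and 229 CPM in the UA libraries, higher in those labelled UA (log2 fold change 1.30, SE 0.16, edgeR adjusted p = 3.93e-05). A count over the whole gene does not show the edited site, so it does not check the genotype, and every direction below is that of the libraries labelled UA against those labelled WT. WT 1 stood apart from the other WT libraries, so results are given with and without it. Granulocyte-macrophage markers were detected in all 6 libraries, but their summed level was 1919 to 1982 CPM in WT and 31498 to 32387 CPM in UA.

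Most cytosolic ribosomal protein genes were lower in the UA-labelled libraries. Of the 66 tested, 49 fell (74.2%) and 0 rose by edgeR's quasi-likelihood test at an adjusted p under 0.05, and the other 17 were not called. Among all 13768 genes tested, 31.4% fell and 34.6% rose. The median log2 fold change of the members was -0.77, with an interquartile range from -1.13 to -0.45 and extremes of -1.93 and 0.25, against a median of 0.12 over all tested genes. The estimate was negative for 63 members. Of the 66 tested, 21 (31.8%) fell by more than 1 on the log2 scale, beside 2949 of all 13768 tested genes (21.4%). At an unadjusted p under 0.05 the count of members higher in UA was also 0, and it was 0 with DESeq2 and 2 with limma-voom (RPSA and RPS15A).

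**Figure D1:**
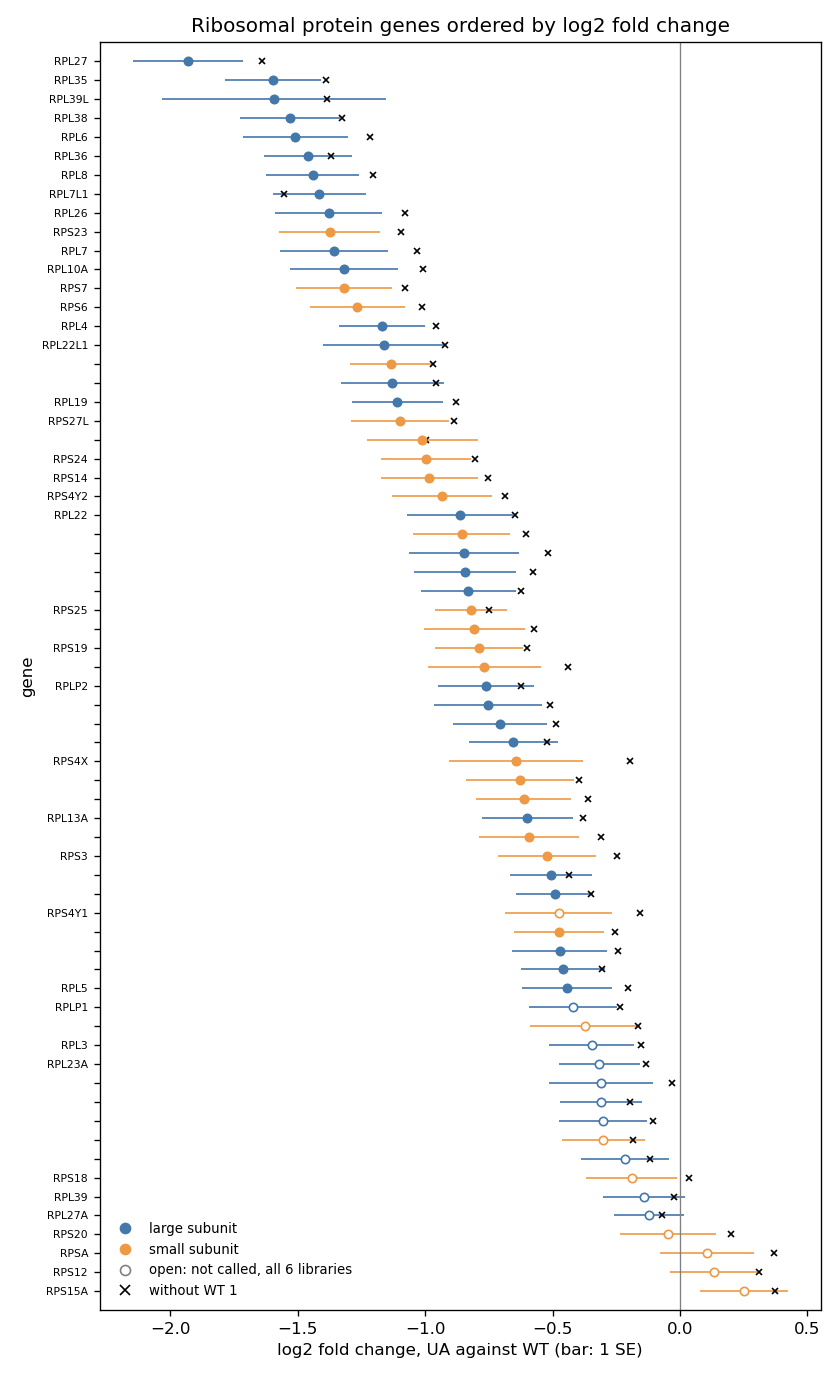
Log2 fold change (UA-labelled minus WT-labelled) of the 66 tested members, ordered from the most negative to the most positive. Circles give the value over all 6 libraries with a bar of 1 standard error, coloured by subunit and open where not called, and crosses the value without WT 1, with names at the genes described most closely. The members form a continuous slope from RPL27 at -1.93 to RPS15A at 0.25, and the values without WT 1 lie mostly closer to 0, with a median of -0.52.

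Read library by library, the members separated the groups in the same direction. In 53 of 66 members (80.3%) every UA library lay below every WT library, against 34.0% of all tested genes. Every UA library lay above every WT library in 1 member, RPS15A, against 39.2% of all tested genes, and the groups overlapped in the other 12. The summed level of the members was 31016, 19641 and 22003 CPM in WT 1, 2 and 3 and 14334, 13909 and 14191 CPM in UA 1, 2 and 3. All 3 UA sums were below the lowest WT sum. The means were 24220 ± 6003 CPM in WT and 14145 ± 217 CPM in UA (SD, n = 3 each), a ratio of 0.584, or 0.679 when WT 1 was left out. As a share of all counts in the library, with no scaling factor, members took 2.66%, 1.94% and 2.18% of WT 1, 2 and 3 and 1.50%, 1.47% and 1.52% of UA 1, 2 and 3. The scaled sums and the unscaled shares thus gave the libraries the same split, with the UA group below the WT group. In RNA of a whole colony, fewer cells of a type and less RNA per cell cannot be told apart.

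**Figure D2:**
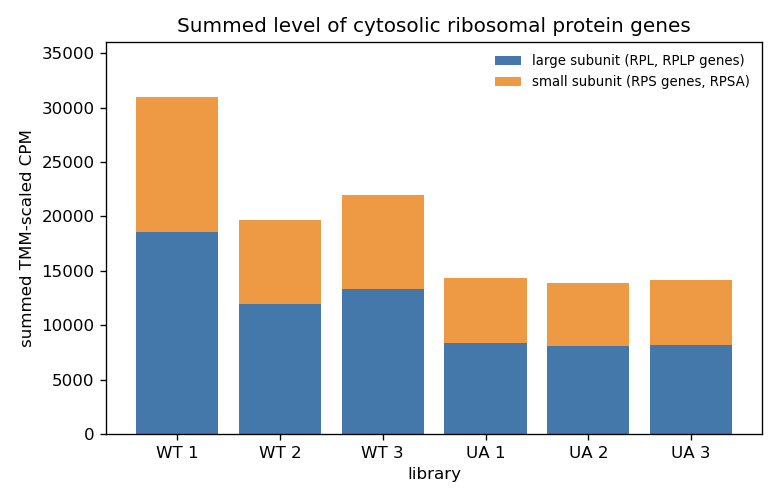
Summed level of the members in each library (CPM, TMM-scaled), divided into small and large subunit genes. The 3 UA-labelled libraries sit between 13909 and 14334 CPM, below all 3 WT-labelled libraries, and WT 1 is highest at 31016 CPM.

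WT 1 carried more ribosomal protein mRNA than either other WT library. It was the highest of the 3 WT libraries in 64 of 66 members, beside 5460 of all 13768 tested genes. It was the highest of all 6 in 63 members. Its median ratio to the mean of WT 2 and WT 3 was 1.47 over the members and 0.981 over all tested genes. The ratio ran from 0.721 in RPL7L1 to 2.06 in RPS4X. WT 2 and WT 3 differed less, with a median ratio of 0.868. The median coefficient of variation of a member was 25.3% over the WT libraries, 9.99% over WT 2 and WT 3 alone, and 4.39% over the UA libraries. The UA coefficient of variation was the smaller one in 63 members.

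Leaving out WT 1 kept the number of members that fell at 49 (74.2%) beside 31.9% of the genes tested in that fit, and 48 of them were the same genes. RPS4X lost its call (log2 fold change -0.20, edgeR adjusted p = 0.071) and RPLP1 gained one (-0.24, edgeR adjusted p = 0.0266). The median moved to -0.52. In this fit 3 members rose, RPSA, RPS12 and RPS15A, beside 37.4% of the genes tested. Every UA library was below both remaining WT libraries in 53 members (background 37.6%) and above both in 4 (background 41.9%).

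Between pairs of UA libraries the SD over members of the log2 ratio was 0.11 to 0.19. It was 0.15 between WT 2 and WT 3, within the range of the UA pairs, and 0.22 and 0.24 between WT 1 and the other WT libraries. Between a WT and a UA library it was 0.47 to 0.54. The 3 UA libraries were kept as 3 samples because the labels give them as 3 colonies. Their counts differed by more than counting noise, with a chi-square of 3.21 to 7.51 per degree of freedom over members, but as PCR copies are counted this does not show that the samples are separate. Where the 3 UA libraries were summed to 1 sample, which is then assumed to vary like the WT libraries, 19 members fell (28.8%) beside 17.5% of all tested genes, and 0 rose beside 21.4%. All 19 were among the 49, and the median was -0.75. They were RPL27, RPL35, RPL38, RPL6, RPL36, RPL8, RPL7L1, RPL26, RPL7, RPL10A, RPL4, RPL37 and RPL19 of the large subunit, and RPS23, RPS7, RPS6, RPS16, RPS27L and RPS24 of the small subunit. The calls of the other 30 rest on the spread among the UA libraries being counted. With WT 1 left out as well, a setting chosen after seeing the data, 39 members fell beside 25.8% of all tested genes and 1 rose, RPSA, beside 27.5%.

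**Figure D3:**
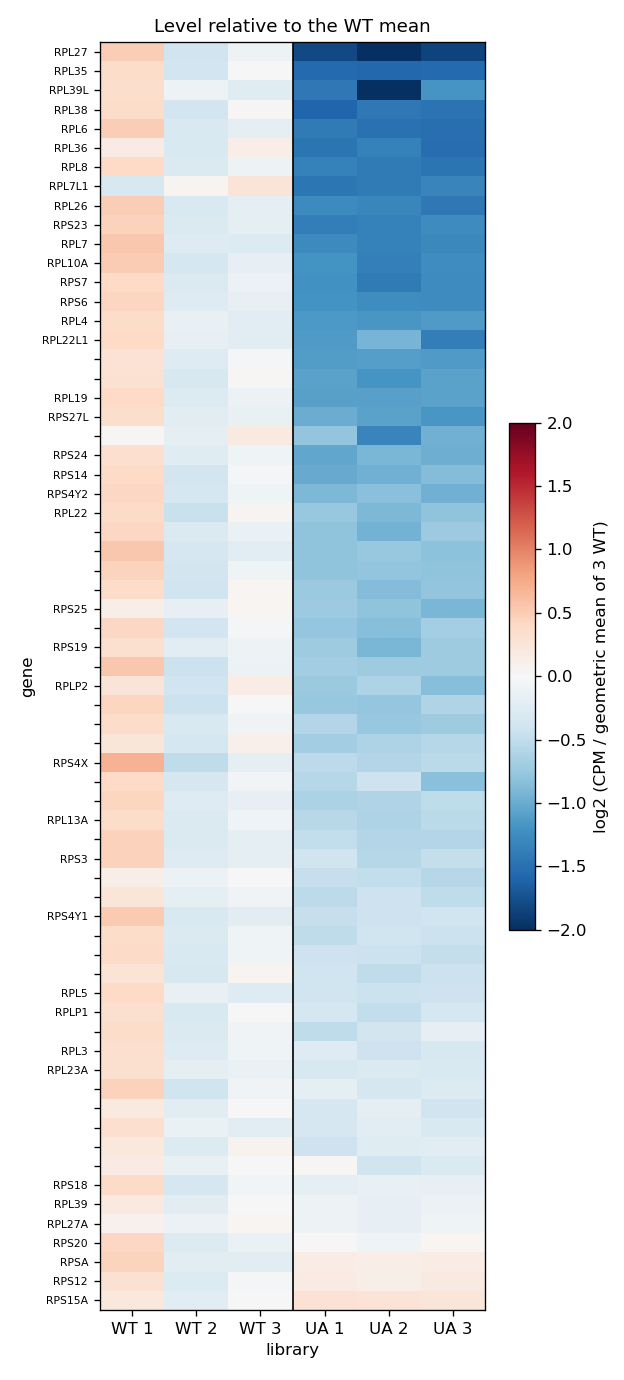
Level of each tested member in each library, as the log2 ratio of its CPM to the geometric mean of the 3 WT-labelled libraries, with the colour scale ending at -2 and 2 and members ordered by log2 fold change, some of them named. WT 1 is above that mean in nearly every row, RPL7L1 being the clearest exception, and the 3 UA-labelled columns are alike, from darkest at RPL27 to slightly above the WT mean at RPSA, RPS12 and RPS15A.

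Among the small subunit genes, 20 of 28 fell (71.4%, beside 31.4% of all tested genes), and the median log2 change was -0.71. Without WT 1, 19 fell and 3 rose, with a median of -0.42. RPS6, the substrate of the S6 kinases, was at 1701, 1054 and 1128 CPM in WT and at 550.5, 534 and 530.2 CPM in UA. Its lowest WT library was well above its highest UA library, and the estimated log2 change was -1.27 (SE 0.19, edgeR adjusted p = 0.000142), or -1.01 without WT 1. RPS23, which lies at the decoding centre, was at 813, 482 and 520.5 CPM in WT and at 225, 229.8 and 245 CPM in UA (log2 fold change -1.37, SE 0.20, edgeR adjusted p = 0.000125). It had the most negative estimate of the tested small subunit genes.

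RPS7 was at 526, 325 and 367 CPM in WT and at 172, 149 and 167 CPM in UA, an estimated log2 change of -1.32 (SE 0.19, edgeR adjusted p = 0.000124). RPS16 was at 523, 359 and 422 CPM in WT and at 199, 201 and 195 CPM in UA (log2 fold change -1.13). RPS24 was at 196, 132 and 147 CPM in WT and at 75.9, 82.6 and 79.3 CPM in UA (log2 fold change -0.996). In all 3 genes the groups did not overlap. RPS21 was at 36.0, 30.9 and 40.3 CPM in WT and at 20.6, 14.2 and 18.2 CPM in UA (-1.01, edgeR adjusted p = 0.00182), and here WT 3, not WT 1, was the highest library.

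RPS14, the gene of the 5q- syndrome region, was at 649.7, 381 and 485 CPM in WT and at 245, 252 and 270.0 CPM in UA. The means were 505 ± 136 and 256 ± 13.0 CPM (SD, n = 3 each), and the estimated log2 change was -0.98 (SE 0.19, edgeR adjusted p = 9e-04), or -0.75 without WT 1. Its adjusted p was 0.056 with the UA libraries summed. RPS25, which supports initiation at internal ribosome entry sites, was at 576, 473 and 543 CPM in WT and at 319.9, 301 and 281 CPM in UA. WT 1 was close to WT 3 in this gene, and its log2 fold change hardly depended on it (-0.82 with and -0.75 without WT 1). RPS9 was at 501, 308 and 339.7 CPM in WT and at 214, 195 and 226 CPM in UA (-0.86, edgeR adjusted p = 0.00227). It fell, with the gap between groups narrow beside the distance of WT 1 from WT 2.

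Several small subunit genes fell by less and with less margin. RPS29 (-0.63), RPS3A (-0.59), RPS3 (-0.52) and RPS27A (-0.47), which is made as a fusion with ubiquitin, each lost the call with at least 1 UA library left out, their highest adjusted p values being 0.0969, 0.0751, 0.122 and 0.125. RPS3, at the entry of the mRNA channel, was at 788, 479 and 501 CPM in WT and at 436, 385 and 411 CPM in UA. The groups did not overlap, but the gap between WT 2 and UA 1 was small beside the gap between WT 1 and WT 2. RPS29 was at 109, 65.8 and 79.7 CPM in WT and at 56.0, 62.0 and 46.5 CPM in UA, again with a narrow gap. RPS18 was at 834, 508 and 614 CPM in WT and at 564, 579 and 573 CPM in UA, all UA libraries within the WT range. RPS28 was at 54.4, 34.5 and 40.5 CPM in WT and at 29.6, 32.8 and 38.0 CPM in UA. RPS13 (-0.30, edgeR adjusted p = 0.126), RPS28 (-0.37, 0.147) and RPS18 (-0.19, 0.37) were not called, and their groups overlapped.

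The 4 highest estimates all belonged to small subunit genes, RPS20, RPSA, RPS12 and RPS15A. RPSA, also known as the laminin receptor, was at 682, 431 and 433 CPM in WT and at 556, 552 and 556 CPM in UA. UA lay between WT 1 and the other WT libraries, and the estimate was 0.10 (SE 0.19, edgeR adjusted p = 0.633) with all libraries but 0.37 (edgeR adjusted p = 6.97e-05) without WT 1. RPS12 was at 156, 104 and 123 CPM in WT and at 142, 136 and 142 CPM in UA, with estimates of 0.13 (edgeR adjusted p = 0.511) and, without WT 1, 0.31 (0.00968). RPS20 was at 255, 158 and 174 CPM in WT and at 193, 179 and 196 CPM in UA. Its sign turned with WT 1, from -0.05 (edgeR adjusted p = 0.839) to 0.20 (0.0513). RPS15A was at 59.8, 44.2 and 52.2 CPM in WT and at 63.0, 62.2 and 60.8 CPM in UA, the only member in which all UA libraries were above all WT libraries. Its estimate of 0.25 (SE 0.17, edgeR adjusted p = 0.223) became 0.37 (0.0184) without WT 1. With the libraries scaled by their size alone RPS15A was called higher with all 6 libraries, at 0.42 (edgeR adjusted p = 0.0415).

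Among the large subunit genes, 29 of 38 fell (76.3%, beside 31.4% of all tested genes). The median log2 change was -0.80, and all 38 estimates were negative. Without WT 1, 30 fell and the median was -0.55. RPL27 had the most negative estimate of all 66 members. This gene, at position 48865147 to 48870270 of chromosome 16 in build Mmul_8.0.1, was at 613, 333 and 408 CPM in WT and at 124, 109.8 and 121 CPM in UA. The means were 451 ± 145 and 118 ± 7.57 CPM (SD, n = 3 each), and the estimated log2 change was -1.93 (SE 0.22, edgeR adjusted p = 2.21e-05), or -1.64 without WT 1.

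RPL35, which sits beside the exit of the peptide tunnel, was at 495, 297 and 389 CPM in WT and at 131, 129.5 and 131 CPM in UA (log2 fold change -1.60, SE 0.19, edgeR adjusted p = 3.03e-05). RPL26, another protein near the exit and a known regulator of p53 translation, was at 339, 195 and 212 CPM in WT and at 99.6, 98.1 and 89.2 CPM in UA (log2 fold change -1.38). In both genes all UA libraries were far below all WT libraries. RPL23A, which contacts the signal recognition particle at the same exit, was not called: it was at 719, 510.0 and 527 CPM in WT and at 465, 475 and 468 CPM in UA (-0.32, edgeR adjusted p = 0.0999). Its groups were separate, with all UA libraries below all WT libraries. RPL39, in the wall of the tunnel, was at 115, 86.2 and 99.8 CPM in WT and at 92.7, 88.4 and 91.7 CPM in UA, and the groups overlapped (-0.14, edgeR adjusted p = 0.457).

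Of the proteins that reach towards the peptidyl transferase centre, RPL8 and RPL4 fell and RPL3 was not called. RPL8 was at 1760.4, 1087 and 1237 CPM in WT and at 519, 499 and 485 CPM in UA, with means of 1361 ± 354 and 501 ± 17.4 CPM (SD, n = 3 each). The estimated log2 change was -1.44 (SE 0.18, edgeR adjusted p = 5.16e-05), or -1.20 without WT 1. RPL4 was at 1463, 1029 and 984 CPM in WT and at 515, 507 and 522 CPM in UA (log2 fold change -1.17, edgeR adjusted p = 0.000131). RPL3 was at 1619, 1078 and 1209 CPM in WT and at 1078, 965 and 1027 CPM in UA. Its WT 2 and UA 1 values met, and the estimate was -0.35 (SE 0.17, edgeR adjusted p = 0.087), or -0.15 without WT 1 (edgeR adjusted p = 0.05, just above the threshold). The changes of these 3 genes were not tested against each other.

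RPL5, which carries the 5S RNA and with RPL11 binds the p53 regulator MDM2, was at 1368, 932 and 869 CPM in WT and at 781, 771 and 778 CPM in UA. It fell by 0.44 on the log2 scale (SE 0.18, edgeR adjusted p = 0.0454) and by 0.21 without WT 1, and it lost the call when any 1 UA library was left out, with an adjusted p of up to 0.128. RPL7 was at 1882, 1084 and 1081 CPM in WT and at 540.2, 507 and 532 CPM in UA (log2 fold change -1.36, edgeR adjusted p = 0.000216). RPL6 was at 554, 319 and 351 CPM in WT and at 149, 141 and 139 CPM in UA (-1.51, SE 0.21, edgeR adjusted p = 8.43e-05). RPL7 and RPL6 thus stood at a far lower level in every UA library, while the UA level of RPL5 was close to that of WT 3.

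RPL38, which is needed for the translation of Hox mRNAs in the mouse embryo, was at 212, 126 and 168 CPM in WT and at 55.1, 61.2 and 59.1 CPM in UA (-1.53, SE 0.20, edgeR adjusted p = 5.84e-05). RPL36 was at 188, 136 and 185 CPM in WT and at 61.0, 66.0 and 58.2 CPM in UA (-1.46, SE 0.17, edgeR adjusted p = 3.25e-05). WT 1 and WT 3 were alike in RPL36, so its estimate moved only to -1.37 without WT 1. RPL19 was at 932, 585 and 657 CPM in WT and at 334, 336 and 338 CPM in UA (-1.11, SE 0.18, edgeR adjusted p = 0.000274). RPL10A was at 635, 351 and 396 CPM in WT and at 194, 173 and 187 CPM in UA (-1.32, edgeR adjusted p = 0.000271). In each of these 4 genes the groups were separate.

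Other large subunit genes that fell included RPL37 (-1.13), RPL12 (-0.85), RPL37A (-0.84), RPL31 (-0.75), RPL18 (-0.71), RPL32 (-0.65), RPL13A (-0.60), RPL28 (-0.51), RPL15 (-0.49), RPL9 (-0.47) and RPL13 (-0.46). RPL37A was at 265, 151 and 184 CPM in WT and at 112, 112 and 111 CPM in UA. It lay lower in each UA library than in any WT library, and its 3 UA values were nearly alike. RPL31 was at 161, 89.0 and 121 CPM in WT and at 71.3, 70.0 and 79.2 CPM in UA. RPL18 was at 316, 198 and 234 CPM in WT and at 163, 145 and 149.9 CPM in UA. RPL15 was at 572, 424 and 459.7 CPM in WT and at 335, 360.4 and 340.1 CPM in UA. These 3 genes had separate groups, as did RPL9, at 233, 144 and 167 CPM in WT and at 133, 132 and 127 CPM in UA. RPL13A, a part of the interferon-induced GAIT complex, was at 466, 293 and 341 CPM in WT and at 244, 236 and 246 CPM in UA (edgeR adjusted p = 0.0119). RPL13, RPL13A, RPL15, RPL28 and RPL9 lost the call with at least 1 library left out, WT 3 among them for RPL13, with adjusted p values of up to 0.115, 0.0543, 0.0712, 0.0726 and 0.122. RPL7A (-0.31, edgeR adjusted p = 0.2), RPL24 (-0.31, 0.109), RPL14 (-0.22, 0.293) and RPL27A (-0.12, 0.45) were not called, and their groups overlapped. RPL27A was at 248, 216 and 239 CPM in WT and at 219, 208 and 219 CPM in UA, and RPL14 at 99.2, 79.9 and 87.7 CPM in WT and at 89.8, 67.1 and 72.5 CPM in UA. RPL30 was not called either (-0.30, edgeR adjusted p = 0.143), although its UA libraries, at 136, 148 and 139 CPM, were all below its WT libraries, at 216, 156 and 148 CPM, by a margin of under 1 CPM.

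The acidic proteins RPLP1 and RPLP2 form the stalk that recruits the translation GTPases. RPLP2 was at 169, 108 and 157 CPM in WT and at 84.4, 92.3 and 79.0 CPM in UA and fell (-0.76, SE 0.19, edgeR adjusted p = 0.00428). RPLP1 was at 378, 245 and 301 CPM in WT and at 238, 216 and 237 CPM in UA and missed the threshold with all libraries (-0.42, SE 0.17, edgeR adjusted p = 0.0508). The groups of both genes were separate, and the difference between the 2 estimates was not tested. RPLP0, the anchor of the stalk, had no row under its symbol and was not analysed here.

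Some members are alternative forms of another ribosomal protein. Of the 6 such members tested, 5 fell (83.3%, beside 31.4% of all tested genes), with a median of -1.13. RPL7L1, a relative of RPL7 that acts in building the large subunit, was at 102, 132 and 151 CPM in WT and at 46.3, 47.6 and 50.7 CPM in UA. It was the member in which WT 1 stood lowest relative to WT 2 and WT 3, and the estimated log2 change was -1.42 (SE 0.18, edgeR adjusted p = 5.49e-05) with and -1.55 without WT 1. RPS27L, a target of p53, was at 119, 80.4 and 83.3 CPM in WT and at 46.4, 44.0 and 41.4 CPM in UA (-1.10, edgeR adjusted p = 0.000464). RPL22 and RPL22L1, forms that can replace each other in the ribosome, both fell. RPL22 was at 148, 83.7 and 119 CPM in WT and at 66.9, 60.9 and 65.0 CPM in UA (-0.86, edgeR adjusted p = 0.00358), and RPL22L1 at 48.1, 32.6 and 31.2 CPM in WT and at 16.6, 19.2 and 14.0 CPM in UA (-1.16, SE 0.24, edgeR adjusted p = 0.00129). RPL39L, known best from the testis, was the least counted member tested, at 7.22, 5.26 and 4.80 CPM in WT and at 2.11, 1.15 and 2.51 CPM in UA (-1.59, SE 0.44, edgeR adjusted p = 0.00773). A further form, RPL36AL, falls outside the symbol rule and is not a member. It was at 585, 324 and 359 CPM in WT and at 103, 95.9 and 108 CPM in UA. Its estimate of -2.05 (SE 0.22, edgeR adjusted p = 1.68e-05) was more negative than that of any tested member. The adjusted p with the UA libraries summed was 0.0602 for RPL22L1 and 0.103 for RPL39L.

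RPS4 is encoded on both sex chromosomes, and the table has rows for RPS4X, RPS4Y1 and RPS4Y2. RPS4X was at 426, 184 and 229 CPM in WT and at 181, 175 and 181 CPM in UA. WT 2 was close to the UA libraries, and the call (-0.64, SE 0.26, edgeR adjusted p = 0.0493) rested on WT 1, as given above. RPS4X also lost the call when any 1 UA library was left out, with an adjusted p of up to 0.128. RPS4Y2 was at 218, 129.9 and 154 CPM in WT and at 87.2, 91.4 and 84.2 CPM in UA and fell (-0.93, edgeR adjusted p = 0.00154), while RPS4Y1 was at 404, 229 and 241 CPM in WT and at 204, 212 and 212 CPM in UA and was not called (-0.48, SE 0.21, edgeR adjusted p = 0.0652). The 3 genes are close copies whose reads the authors' counting could divide among them, so their separate values are uncertain.

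Of 20 genes listed here for Diamond-Blackfan anaemia, 15 had a row under their symbol and 14 were tested. RPS19, RPS7, RPS24, RPS29, RPL5, RPL9, RPL15, RPL18, RPL26, RPL27, RPL31 and RPL35 fell. These are 12 of 14 (85.7%), beside 74.2% of all tested members and 31.4% of all tested genes. The median over the 14 was -0.73, close to that of all members. RPS28 and RPS15A were not called. RPS19, the gene mutated most often in the disease, was at 428, 290.3 and 319 CPM in WT and at 209, 182 and 209 CPM in UA. The means were 345 ± 72.5 and 199.9 ± 15.9 CPM (SD, n = 3 each), and the estimated log2 change was -0.79 (SE 0.17, edgeR adjusted p = 0.00197), or -0.60 without WT 1. Its adjusted p was 0.112 with the UA libraries summed.

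The small subunit genes fell relatively less than the large subunit genes when summed. The ratio of the summed small to the summed large subunit level was 0.667, 0.645 and 0.651 in WT 1, 2 and 3 and 0.714, 0.727 and 0.731 in UA 1, 2 and 3, so the 2 groups did not overlap. This ratio was not tested. It depends on how many genes of each subunit have a row. The order of the members by level was similar in all libraries, with Spearman correlations over the 66 members of 0.982 to 0.990 between WT libraries, 0.996 to 0.997 between UA libraries and 0.908 to 0.930 between a WT and a UA library. Gene length is the same in each library and keeps this order alike.

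Ribosomal protein genes have many processed copies in the genome, short intron-less rows to which reads of the gene proper can be assigned. The table holds 14 further rows under the symbol of a member. The 13 with a position span 156 to 928 bases, while the row used for the same symbol spans 2721 to 21535 bases in the 11 cases with both positions. In the 6 such rows with a mean WT level of at least 20 CPM, the log2 fold change differed from that of the row used by at most 0.11. The further RPL19 row, of 591 bases on chromosome 15, gave -1.14 against -1.11 for the row of 4691 bases on chromosome 16. The further RPS24 row, of 424 bases on the X chromosome, gave -1.06 against -0.996 for the row on chromosome 9. The other 4 rows gave -0.50 against -0.47 for RPL9, -0.42 against -0.31 for RPL24, -0.25 against -0.32 for RPL23A and 0.20 against 0.13 for RPS12. The row used spans under 1500 bases for 6 members, RPL37, RPS15A, RPS21, RPS28, RPL14 and RPS2, and their values are uncertain for the same reason. With all rows of a symbol summed, 49 members fell and the median was -0.77, as before.

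**Figure D4:**
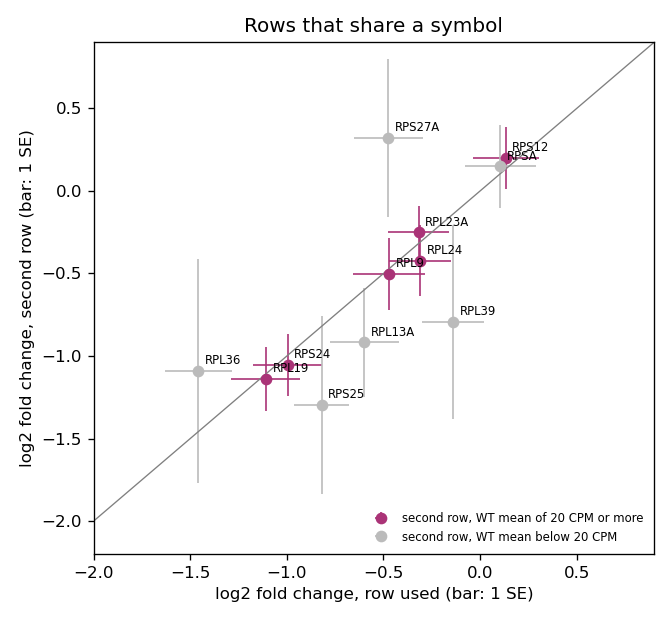
Log2 fold change (UA-labelled minus WT-labelled) of the further rows under a member's symbol against that of the row used for the symbol, each with bars of 1 standard error, and the line of equal values. The rows with a mean WT level of at least 20 CPM lie within 0.11 of the line, and those at lower levels scatter around it.

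Genes that work beside the ribosomal proteins were counted in 3 lists. Of 6 tested genes for ubiquitin-fused or ribosome-associated proteins, 4 fell (66.7%, beside 31.4% of all tested genes), with a median of -0.56. RPS27A is itself a member, so its fall is counted both here and among the members. FAU, which encodes RPS30 as a fusion with a ubiquitin-like protein, was at 549.8, 356 and 429 CPM in WT and at 119, 107 and 121 CPM in UA (-1.95, edgeR adjusted p = 6.07e-06). NACA (-0.65) and BTF3 (-0.66), the subunits of the nascent polypeptide-associated complex, fell with it and with RPS27A. RACK1, a scaffold on the small subunit, was not called (-0.40, edgeR adjusted p = 0.0652), nor was TPT1 (-0.39, edgeR adjusted p = 0.122).

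Of 26 tested genes in a joint list of translation factors and 5' TOP genes, 10 fell and 10 rose, 38.5% each, with a median of 0.08. These shares are near those of all tested genes, 31.4% lower and 34.6% higher. The list was not divided by whether an mRNA carries the motif, so the shares are not those of the 5' TOP class. EIF4A1, the helicase of cap-dependent initiation, was at 1413, 1192 and 1142 CPM in WT and at 359, 288 and 304 CPM in UA (-1.98, edgeR adjusted p = 2.07e-06). NPM1, a histone chaperone of the nucleolus (-1.66), and EIF3B, a core subunit of initiation factor EIF3 (-1.28), fell too. EEF2, the translocation factor whose mRNA is a classical 5' TOP mRNA, was at 115, 131 and 163 CPM in WT and at 390.1, 420.2 and 408 CPM in UA (1.57, edgeR adjusted p = 1.27e-05). EEF1A1, which delivers aminoacyl-tRNA, rose by 0.51 (edgeR adjusted p = 0.0268), EIF4B by 1.29 and PABPC1 by 0.42. The count that rose was 13 without WT 1 and 6 when WT 3 or any 1 UA library was left out.

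Of 34 genes of ribosome biogenesis, 28 fell (82.4%, beside 31.4% of all tested genes) and 2 rose, with a median of -1.29. EBNA1BP2, an assembly factor of the large subunit, was at 356, 248 and 258 CPM in WT and at 39.9, 40.0 and 38.1 CPM in UA (-2.87, edgeR adjusted p = 6.48e-07). MYC, the transcription factor that drives many of these genes, was at 320.2, 345 and 344 CPM in WT and at 80.8, 76.9 and 68.8 CPM in UA (-2.15, edgeR adjusted p = 8.93e-07). NOP2, an rRNA methyltransferase (-2.14), and DKC1, the pseudouridine synthase (-1.84), also fell. WT 1 was the highest of the WT libraries in 17 of these 34 genes, beside 5460 of all 13768 tested genes. Among the 17 were EBNA1BP2 and DKC1 but not MYC or NOP2. Over the 34 genes, the median ratio of WT 1 to the mean of the other WT libraries was 1.11. The 2 that rose were POLR1A, the catalytic subunit of RNA polymerase I (1.57), and UBTF, its promoter factor (0.51).

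**Figure D5:**
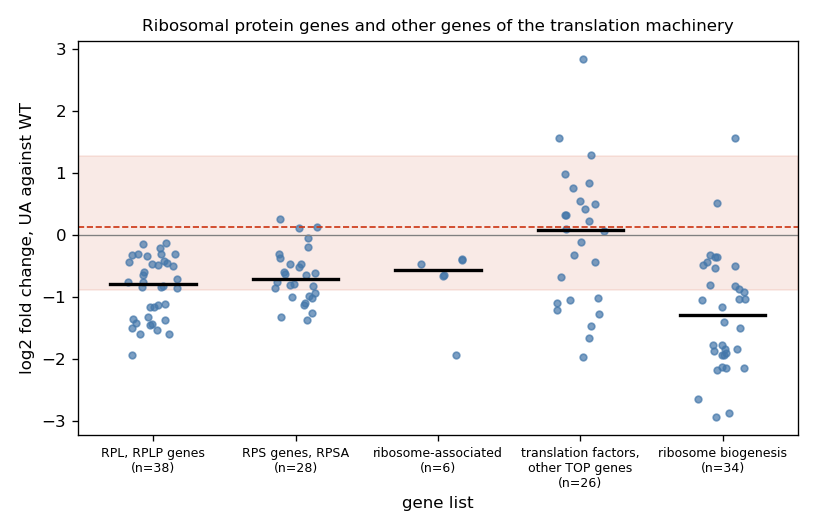
Log2 fold change (UA-labelled minus WT-labelled) of each tested large and small subunit gene and of the genes in 3 related lists, with a black bar at each list's median, a dashed line at the median of all tested genes (0.12) and a band over their interquartile range (-0.89 to 1.28). The large and small subunit genes and the biogenesis genes lie mostly below 0, with medians of -0.80, -0.71 and -1.29, and the translation factors and 5' TOP genes spread to both sides of 0.

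Markers of cell types and of growth differed between the same libraries. Beside the counts of markers below, 34.6% of all tested genes rose and 31.4% fell. Of 10 granulocyte-macrophage markers, 8 rose and 1, SPI1, fell in UA. Of 7 megakaryocyte markers, 5 rose and 1 fell, and their summed level was 421 to 472 CPM in WT and 832 to 848 CPM in UA. Of 7 markers of stroma and endothelium, 6 rose and 1 fell, with sums of 140.4 to 145 CPM in WT and 1168 to 1197 CPM in UA. COL3A1 was at 0 in 2 WT libraries and KDR and GP1BB in 1 each. The sums of 4 erythroid markers were 207 to 249.9 CPM in WT and 19.5 to 28.5 CPM in UA, with ALAS2 at 0 in 2 WT and 1 UA libraries. The 4 lymphoid markers summed to 102 to 121 CPM in WT and 131 to 152 CPM in UA, with CD3E at 0 in all 3 WT libraries. The 5 proliferation markers summed to 1922 to 2117 CPM in WT and 1528 to 1650 CPM in UA, of which CCNB1, PCNA and MCM2 fell and MKI67 rose. In WT 1 alone these sums were, in the order given, 1919, 472, 145, 249.9, 102 and 2117 CPM, within or near the range of WT 2 and WT 3. Its megakaryocyte, stroma and erythroid sums were mostly TUBB1 (456 CPM), DCN (124 CPM) and RHAG (236 CPM), so they say little of the other markers. Some single markers differed more, with CSF1R at 82.5, 154 and 154 CPM and PCNA at 549, 392 and 360 CPM in WT 1, 2 and 3. Others, such as TUBB1 at 456, 411 and 453 CPM, did not. The ribosomal protein sum of WT 1 was 1.49 times the mean of WT 2 and WT 3 after scaling, and its unscaled share was 1.29 times theirs. The part of these differences in the ribosomal protein result was not tested.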

How the data were processed

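RNA of 6 single colonies was made into libraries with the SMART-Seq V4 and Nextera XT kits, per the labels' protocols. The chemistry keeps neither strand nor molecule, so reads of overlapping genes cannot be assigned and PCR copies are included. Mmul_8.0.1 and bcl2fastq are named in the submitters' processing notes. Not given in the sources used here are the aligner and counter. Raw gene counts without normalization were deposited. A second deposited table has, per the file headers, p-values with and without adjustment, a statistic (score), log2 fold changes, their standard error and the mean of normalized counts (signal). Only its names, descriptions and positions were used for the members.

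Of 32386 rows, 2529 are named by symbol and 29857 by Ensembl ID. The deposited table gave symbols for 9226 IDs, the reference's gene names gave 7223 more, and 13408 have none. The symbol pattern matched 84 rows, of which 14 repeat a symbol. Where these sources differ for an ID, the deposited symbol was used. Some genes are counted in the totals but not reported here by name.

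Tests used edgeR 4.0.16 under R 4.3.3 (quasi-likelihood, robust=TRUE, TMM factors, filterByExpr with a minimum count of 10 and a minimum total of 15), with the label as the only term, and adjusted by Benjamini-Hochberg over all 13768 genes left. A call is an adjusted p under 0.05. Per gene, an exact permutation test of 3 against 3 cannot go below 0.1 and was not used. limma 3.58.1 and DESeq2 1.42.0 gave alternatives, as did other scalings, filters, leaving out each library and summing the UA libraries. On simulated data for this comparison (13768 genes), the fit recovered 43% of 100 genes with a log2 change of 1 and 98% of 100 with one of 2, with 4 false calls of 145. The simulation changed only these genes and gave every gene in both groups the same coefficient of variation, 0.232. In the data it was 0.311 among WT and 0.107 among UA libraries, so these rates need not hold for the data. The members, lists and tests were chosen with earlier results of these data known. Named with full values were the members with the 8 largest falls and the 8 at the other end, the 6 most counted, the 4 on either side of the median, those of the named roles and lists, those whose call changed without WT 1 or with UA summed, and up to 4 genes of each related list. Others were added after their values were seen.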

Additional observations from a re-analysis of the deposited data

How the results depend on the processing

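The number of members that fell was 49 and lay between 41 and 56 under the other scalings, filters, tools and thresholds and with 1 WT library left out. It was 38 or 39 without 1 UA library, 39 with WT 1 left out and UA summed, and 19 with the UA libraries summed, which also gave 2410 genes lower and 2950 higher in all, 1 ribosome-associated gene lower, 5 translation and 5' TOP genes higher and 1 biogenesis gene higher. Leaving out 1 library gave ranges of 38 to 56 members lower and 0 to 3 higher, with a median of -0.93 to -0.52. Of the 14009 to 14535 genes tested in these fits, 3764 to 4578 fell and 4133 to 5371 rose. With all 6 libraries, 4321 of 13768 fell and 4770 rose. The same fits gave 6 to 13 translation and 5' TOP genes higher (median log2 fold change -0.0060 to 0.18) and 1 to 2 biogenesis genes higher. Scaling by library size alone moved the median of all genes by 0.16, gave 1 member higher and a UA mean sum of 14975 CPM, and upper-quartile factors gave a sum of 14606 CPM. limma-voom called 2 members higher. With WT 1 left out and UA summed, 1 member and 1 biogenesis gene were higher. Estimates near 0 turned sign: RPL39 (0.031), RPS20 (0.14) and RPL27A (0.044) with library size alone, RPS20 with limma-voom (0.15) and upper-quartile factors (0.047), and RPS18 (0.037) and RPS20 (0.21) without WT 1 and with UA summed. With 1 library left out, the RPS18 estimate ran from -0.35 without WT 2 to 0.036 without WT 1. The ranges were -0.19 to 0.20 for RPS20, -0.0024 to 0.31 for RPS12 and -0.018 to 0.37 for RPSA. In each gene the sign turned between leaving out WT 2 and leaving out WT 1. For RPSA it also turned without WT 3, as did the median of the joint translation and 5' TOP list. Of 1319 gene values, 1179 kept direction and call, 100 lost the call, 28 gained it and 12 turned sign. The cause was not tested, beyond the smaller number of samples where libraries were left out or summed. The replicate numbers of the titles did not pair the samples: same-numbered libraries had correlations of 0.0129, 0.0220 and 0.0132, each the best for its library. With a replicate block 50 members fell beside 4174 of all 13768 genes, the median was -0.73 and RPLP1 was called (adjusted p = 0.0472). With the counts thinned to the smallest total, 47 members fell. Whether depth limits the calls of the least counted genes was not tested. The share of all tested genes that fell is not reported here for thinning or for the other scalings, filters, tools and thresholds.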

Other observations

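The deposited table describes 11 further rows as ribosomal proteins for which no symbol was given, and these were looked up after the members' values were seen. All 11 were tested, and the median log2 fold change was -0.84. By edgeR 8 fell (72.7%) and 0 rose, beside 31.4% and 34.6% of all tested genes. The row described as RPS15 was at 879.7, 523 and 645 CPM in the WT libraries and at 136, 114 and 127 CPM in the UA libraries. Its estimate of -2.44 on the log2 scale (SE 0.20, edgeR adjusted p = 2.81e-06) was more negative than that of any of the 66 members. The row described as RPL26-like 1 was at 99.9, 48.9 and 67.6 CPM in WT and at 13.5, 14.9 and 12.3 CPM in UA (-2.41, SE 0.27, edgeR adjusted p = 2.03e-05). In both rows all UA libraries were far below all WT libraries. RPS10 was at 309, 189 and 229.8 CPM in WT and at 100.4, 103 and 99.4 CPM in UA (-1.27), and RPL11, the partner of RPL5, was at 201, 124 and 148 CPM in WT and at 90.2, 86.2 and 87.3 CPM in UA (-0.84, edgeR adjusted p = 0.0023). The row described as RPS2 was at 838, 566 and 604 CPM in WT and at 441, 406 and 416 CPM in UA (-0.67). It spans 892 bases, a length in the range of the further rows above, so its value is uncertain for the same reason. The rows described as RPL29, RPL10-like and RPL7-like 1 span 474, 645 and 1021 bases and are uncertain too. RPL17 (-0.21), an RPS20-like row (-0.10) and an RPL10-like row (0.33) were not called. With these rows joined to the members, 57 of 77 fell, beside 31.4% of all tested genes.

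The authors' deposited table lists 64 of the members, and for the 62 of them tested here its log2 fold changes run from 3.47 to 4.85, positive throughout. Of the genes in the authors' deposited table that have a row in the counts, 3471 of 20091 have 0 counts in all 6 libraries, and RPL3L, with 0 counts here, is listed in the authors' deposited table with a mean of 44.5. The sources used here do not say which libraries the authors' deposited table compares, so its values are not set against those of the colonies.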
